A study of Mus musculus with 2 samples.

Results

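The 9 genes described here mark macrophages of the lymph node: Csf1r, Adgre1, Cd68, Lyz2, Marco, Timd4, Mertk, Vsig4 and Cd163. They were taken from the array by gene name, with every probe of each gene that was not a control, which gave 15 of the 56603 probes and 9 of the 37008 gene names. Cells sorted from mouse lymph nodes were profiled on 2 single-color Agilent arrays. The tumor-draining array holds stromal cells from nodes that drained a tumor of the 4T1 mammary carcinoma line, taken 2 weeks after the line was placed under the skin at the mammary gland of C57BL/6 mice. The normal array holds stromal cells from nodes of mice with no tumor, used as controls. Cells of both groups came from females and were gated by flow cytometry as CD45-negative, that is, without the surface antigen that nearly all leukocytes carry. 4T1 is known as a line of BALB/c origin, so tumor and host as labeled differ in strain, and no effect of this can be told apart from the tumor itself. The sources used here do not say how many mice stand behind each array.

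Each group has 1 array, so no difference below has a replicate check or a p-value, and precision is limited by the number of arrays. Signals are spot intensities after background subtraction, given with the error that the scanner software estimates for the spot. That error does not cover differences between mice or sorts. Each difference is a log2 value, tumor-draining minus normal, taken after scaling each array to its 75th percentile. A gene is called higher or lower where the change reaches 2-fold. Beside such calls stand those obtained when the arrays are scaled to spike-in RNA instead (spike-in scaling), and the shift of a list is its median difference less that of all genes. Signals of different probes depend on probe sequence and are not compared with each other. A summed signal of a list is unscaled and follows its brightest probes most. In bulk RNA, fewer cells of a type and less RNA per cell cannot be told apart.

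Macrophages of the lymph node line the sinuses through which lymph flows and also sit in the T cell zone and in germinal centers. They take up particles and dying cells, and their survival depends on signals through the receptor that Csf1r encodes, whose ligands come in large part from stromal cells. Macrophages carry CD45, so a CD45-negative sort is meant to leave them out. The labeled cell type was checked against its markers. All 11 fibroblastic reticular cell markers and all 10 lymphatic and 10 blood endothelial markers were above background on both arrays, but so were all 8 pan-leukocyte genes. Ptprc, which encodes CD45, had a signal of 17432 on the tumor-draining array and 3702 on the normal array and was 4.91-fold higher.

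The probes show which stretch of each message was read, and they are printed for genes whose level changed most, whose probes disagreed, that have a close paralog, or that lay at or near background. Each has 60 bases, of which the first 30 are given from 5′ to 3′, as the array files hold them. No base is capitalized, since no motif was searched.
Marco probe: gagcccgagaggtcatcagtgtgtccccag
Timd4 probe: acttcttttcacattcaagtttctttaaag
Mertk probe: agcaccaggtgaaagctgtcaagtcaggtt
Adgre1 probe that was detected: ttgtgtttcctatgcactttcttgtggtgt
Adgre1 probe that was not detected: cctggctttgcatctagcaatggacagctg
Lyz2 brighter probe: cttaagttccttcattcacactaactctga
Lyz2 dimmer probe: aacgttgtgagtttgccagaactctgaaaa
Lyz1 probe: ccaataaccacaggagcaaatctaatctca
Vsig4 probe: aagacaagcaactctgaagaaaccacaagg
Cd163 probe that was detected on 1 array: cagtgcatcatgtccaaatatgacatgtcc

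Marco, Timd4 and Mertk, receptors for particles or dying cells, were the members with lower signals on the tumor-draining array. Marco, a class A scavenger receptor that binds bacteria and particles in lymph, had a signal of 643 ± 64.4 on the tumor-draining array, against 6909 ± 691 on the normal array. After scaling it was 10.3-fold lower, a log2 difference of -3.36 with a software error of 0.20. Of the 22152 genes above background on both arrays, 85 had a lower difference than Marco, or 0.384%. Its single probe reads the minus strand at chr1:122371115-122371134 in mm9, an interval shorter than the probe. The array files give positions but no exon or intron for any probe. Marco is also known as a gene of the lymphatic endothelium that lines the medullary sinuses of mouse nodes.

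Timd4 encodes a receptor by which macrophages hold phosphatidylserine, the lipid that dying cells expose. Its signal was 41.8 ± 4.51 on the tumor-draining array and 177 ± 17.8 on the normal array. This was a 4.07-fold lower signal after scaling, with a log2 difference of -2.02 and a software error of 0.21, and 1423 genes had a lower one. The probe lies at chr11:46657173-46657232 in mm9. With normexp, another background correction, the log2 difference of Timd4 was -1.18, still at least 2-fold.

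Mertk, a receptor tyrosine kinase that drives engulfment of dying cells and marks macrophages of the T cell zone, had a signal of 79.1 ± 8.13 on the tumor-draining array and 149 ± 15.05 on the normal array. Its log2 difference was -0.86 with a software error of 0.21, so it was 1.81-fold lower and within 2-fold. Loess gave a log2 difference of -1.02 and scaling to the median of detected probes -1.01, both past 2-fold, while scaling to the spike-ins gave -0.03. The Mertk probe lies at chr2:128627867-128627926 in mm9.

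**Figure D1:**
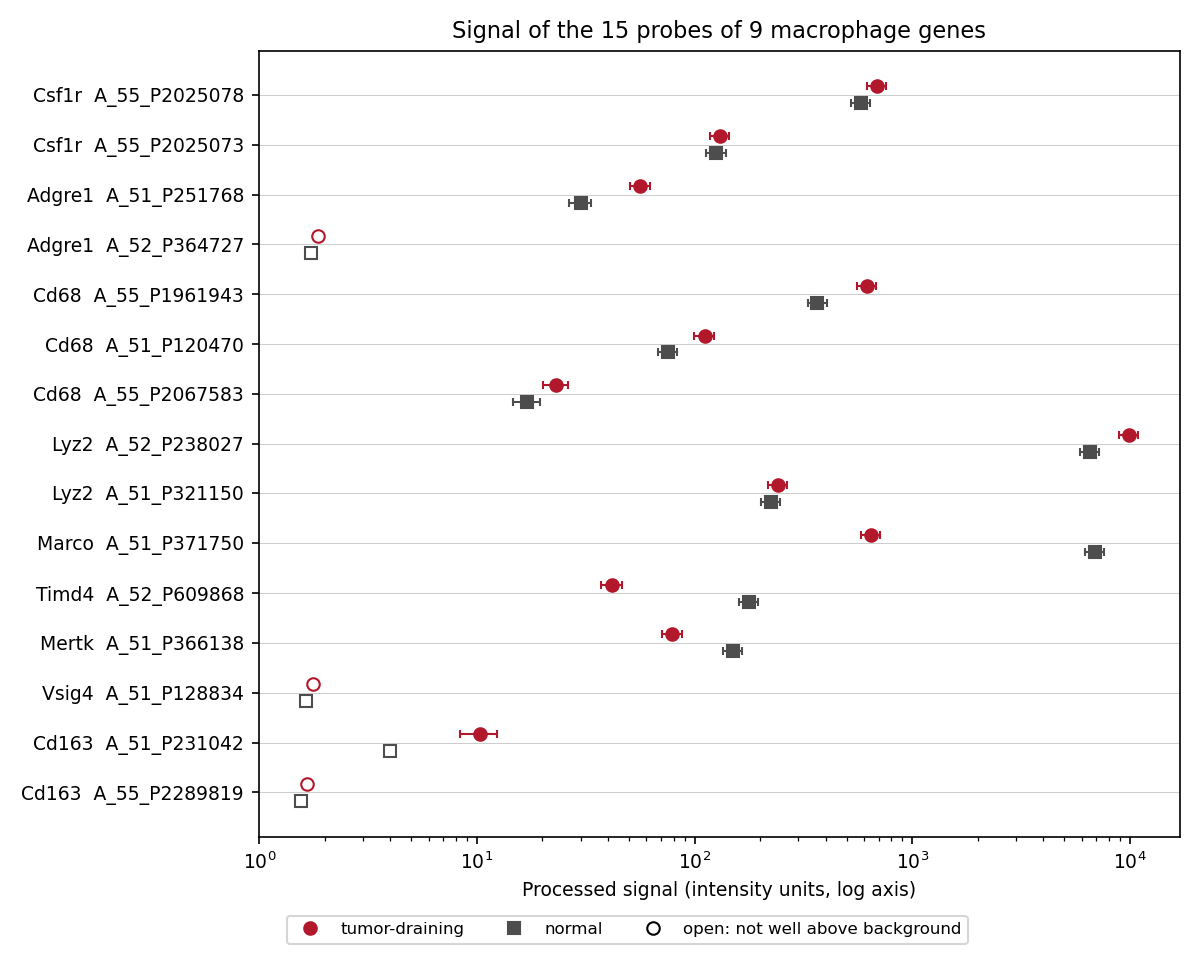
Processed signal on a log axis (intensity units) of each of the 15 probes, with the tumor-draining array as red circles above the normal array as gray squares. Bars are the software's error for the spot, and open marks without bars are probes not well above background. The Marco, Timd4 and Mertk marks are the ones where the tumor-draining array lies to the left, with Marco at 643 against 6909.

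The general lineage genes had higher signals on the tumor-draining array, but none of them reached 2-fold. Csf1r encodes the receptor for the growth factors of macrophages. Its brighter probe had a signal of 688 ± 68.9 on the tumor-draining array and 579 ± 58.0 on the normal array, and its dimmer probe 130 ± 13.2 and 126 ± 12.7. The log2 differences were 0.31 with a software error of 0.20 and 0.11 with one of 0.21, and the median difference of all detected genes was itself 0.10. The dimmer probe differed by -0.06 after loess. Both Csf1r probes lie on chromosome 18.

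Adgre1, which encodes the adhesion receptor used as the classical surface marker of mouse macrophages, was the member with the highest difference among those above background on both arrays. Its detected probe had a signal of 56.1 ± 5.91 on the tumor-draining array and 30.02 ± 3.45 on the normal array. The log2 difference was 0.96 with a software error of 0.22, or 1.95-fold higher, and 2642 genes had a higher one. Quantile normalization gave a log2 difference of 1.01 and one of 1.003 came from the authors' deposited values, on the other side of 2-fold, while normexp gave 0.41. The detected probe lies at chr17:57622843-57622902 in mm9. The other probe, at chr17:57550221-57550280, had signals of 1.87 and 1.73 and was not well above background on either array, so the gene rests on 1 probe.

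The genes for lysosomal and granule contents were also higher within 2-fold. Cd68 encodes a glycoprotein of the lysosome and endosome membrane of phagocytes. Its brightest probe had a signal of 619 ± 62.0 on the tumor-draining array and 367 ± 36.7 on the normal array, a log2 difference of 0.82 and 1.76-fold higher. The other Cd68 probes differed by 0.62 and 0.50 on the log2 scale, so all 3 probes were higher, and the dimmest of them, at 23.1 ± 2.99 against 17.04 ± 2.46, had a software error of 0.28 on its difference. The brightest probe lies on the minus strand at chr11:69477775-69477834 in mm9.

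Lyz2 encodes the lysozyme of macrophages, monocytes and neutrophils. Its brighter probe had a signal of 9888 ± 989 on the tumor-draining array and 6528 ± 653 on the normal array, a log2 difference of 0.66 and 1.58-fold higher. Its dimmer probe, at 242 ± 24.3 and 223 ± 22.4, differed by 0.18 on the log2 scale, within its software error of 0.20. The probes thus disagree on whether Lyz2 was higher beyond spot error. They lie at chr10:116714450-116714509 for the brighter and chr10:116719175-116719234 for the dimmer, both on the minus strand in mm9. Lyz1, the neighboring lysozyme gene with nearly the same message, differed by 0.78 with a signal of 2096 ± 209.6 on the tumor-draining array and 1274 ± 127 on the normal array. The Lyz1 and brighter Lyz2 probes share a longest run of 8 bases, but each could still bind the message of its paralog, so the lysozyme values are uncertain as to gene. Neutrophils also express Lyz2, and 8 of 10 neutrophil markers were within 2-fold (4 with spike-in scaling, the other 6 being higher). Their part in the result was not tested. Over all detected genes 27.9% were called in either direction, and with spike-in scaling 11346 of 24677 were called higher.

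Vsig4 and Cd163, markers of resident macrophages with strong clearance functions, were at or near background. Vsig4 encodes a receptor for complement-coated particles. Its single probe, at chrX:93443157-93443216, had signals of 1.76 and 1.63 on the tumor-draining and normal arrays and was not well above background on either, so no difference is given. Cd163 encodes the receptor that takes up hemoglobin bound to haptoglobin. One of its probes, at chr6:124280484-124280543, was above background on 1 array, the tumor-draining one, with a signal of 10.4 ± 2.04 there and 4.00 ± 1.67 on the normal array, where it has only a bound. With normexp its log2 difference was 0.21. Set against the lowest signal that counted as above background on the normal array, Cd163 was at least 1.40-fold higher. The other Cd163 probe, at chr6:124270436-124270495, had signals of 1.66 and 1.55 and was not well above background on either array.

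**Figure D2:**
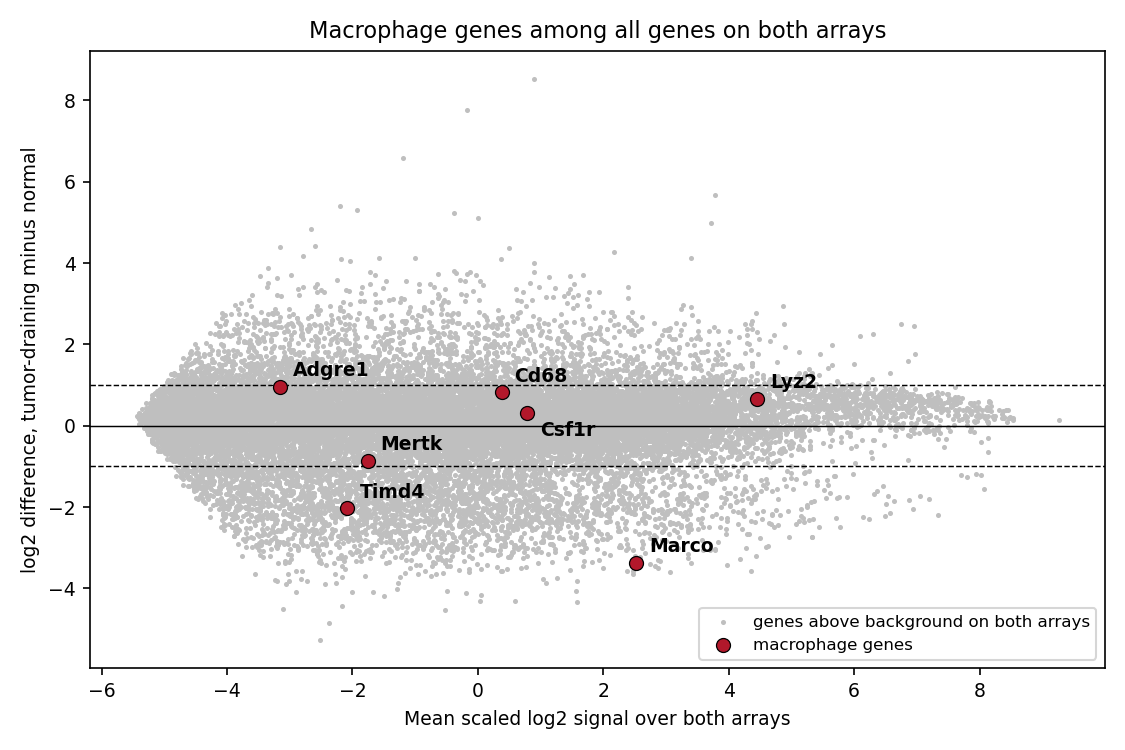
Log2 difference, tumor-draining minus normal, against the mean scaled log2 signal, for the 22152 genes above background on both arrays (gray) and the 7 macrophage genes among them (red, labeled). Dashed lines mark 2-fold. Marco at -3.36 lies at the lower edge of the cloud, while Csf1r, Cd68, Lyz2 and Adgre1 lie between 0.31 and 0.96.

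Of the 9 genes, 7 were above background on both arrays, 1 on neither, and 1 in tumor-draining cells alone. Marco and Timd4 were called lower and none was called higher. Among the 24677 genes detected on 1 or both arrays, 16.5% were called lower, 11.4% higher and 27.9% either, so 2 of 8 measured members is not far from the share of all genes. The median log2 difference of the 8 measured members was 0.49, against 0.10 over all genes. These 8 include Cd163, which was counted only through the array where it is high. Over the 7 members above background on both arrays the median was 0.31, against 0.12 over all such genes, so the shift was 0.19 in place of 0.39. A median hides the spread here, since the members above background on both arrays covered 4.33 log2 units. Scaling to the spike-in RNA raised each difference by 0.82, and then Csf1r, Adgre1, Cd68, Lyz2 and Cd163, 5 of the 8, were called higher and 2 lower. Under it 11346 of the 24677 genes were called higher and 1974 lower. Of all calls 85.2% were then higher, against 40.9% with the main scaling. For scale, probes of 1 gene differed with a median SD of 0.27 on the log2 scale over 7599 genes.

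**Figure D3:**
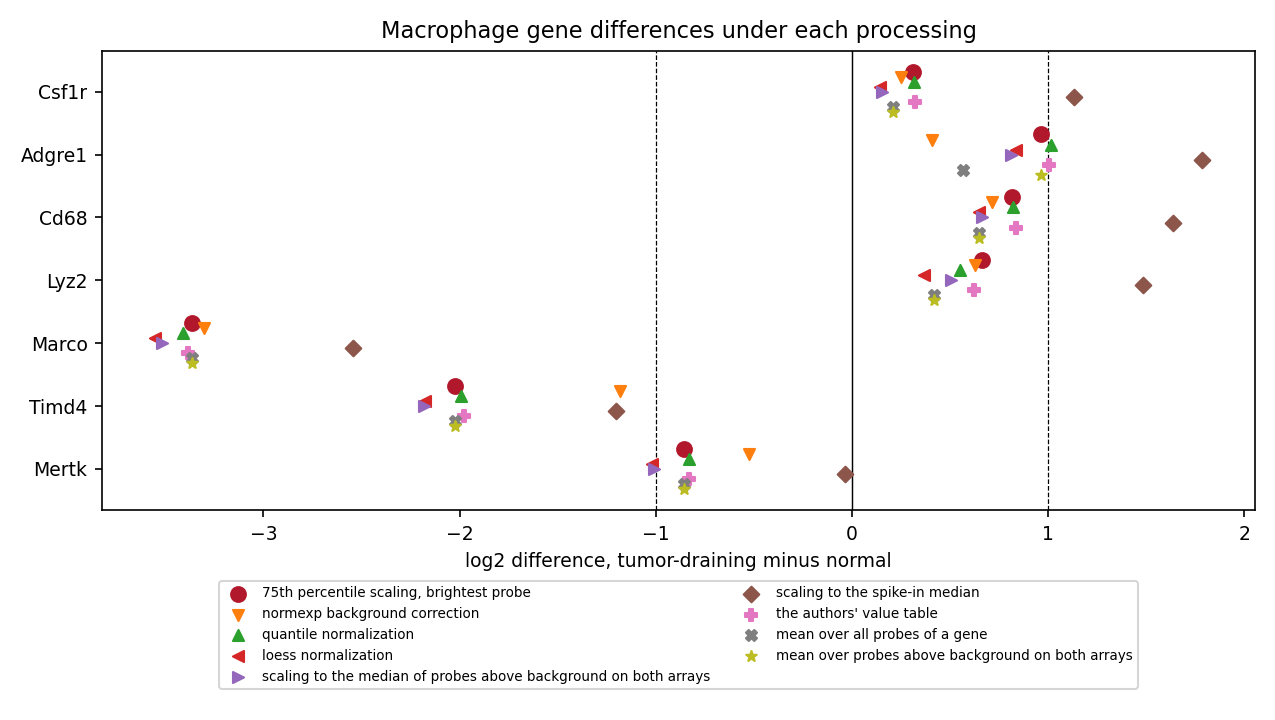
Log2 difference, tumor-draining minus normal, of each of the 7 macrophage genes above background on both arrays, under the scaling to the 75th percentile with the brightest probe (large red circles) and 8 other ways of processing (other marks). Dashed lines mark 2-fold. The Marco marks lie between -3.55 and -2.54 and no gene changes sign. Mertk and Adgre1 cross a dashed line under several settings, and Csf1r, Cd68 and Lyz2 with spike-in scaling.

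The ligands of the Csf1r receptor were lower on the tumor-draining array while its own level was within 2-fold. Of 8 colony-stimulating factors and their receptors, 5 were called lower and none higher (4 and 1 with spike-in scaling), and the shift was -2.24 log2 units, or -1.16 with normexp. Csf1 and Il34, the ligands, were named after their values were seen. Csf1 had a signal of 813 on the tumor-draining array and 4307 on the normal array and was 5.08-fold lower, and all 3 of its probes were lower, with log2 differences between -2.98 and -2.34. Il34 had a signal of 242 on the tumor-draining array and 1011 on the normal array and was 4.01-fold lower. Csf2rb and Csf2rb2, near-identical genes for beta chains of cytokine receptors, differed by -2.48 and -2.43, and their probes may read both messages. Csf3, a granulocyte factor, was detected on the normal array alone and was at least 3.31-fold lower, with a log2 difference of -0.42 under normexp. Csf3r and Csf2 differed by 0.43 and 0.04 (-0.06 for Csf3r in the authors' deposited table, and -0.11 for Csf2 after loess). Csf1 and Il34 are known as products of stromal cells, and the fibroblastic reticular cell markers were lower on the same array, with 10 of 11 called lower (6 with spike-in scaling) and a shift of -2.04. Col1a1 had probes from -2.06 to 0.86, and with the mean over all probes of each gene 9 of 11 were called lower. The summed signal of these markers was 168174 on the tumor-draining array and 439856 on the normal array, with Col1a2 and Dcn the largest parts. None of these markers was at background, and their part in the ligand values was not tested.

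Genes for recognizing dying cells, the process that Mertk and Timd4 serve, went both ways. Of 15, 6 were called lower and 4 higher (3 and 6 with spike-in scaling), with a shift of -0.59. That shift was -0.02 with the mean over all probes of each gene. Among the 12 genes above background on both arrays it was -1.36, with 6 lower and 2 higher, since Havcr1 and Timd2 were counted only through the array where they are high. With normexp 6 were lower and 1 higher. Gas6, the bridging ligand of Mertk, had the lowest difference at -2.75, with a signal of 4330 on the tumor-draining array and 30299 on the normal array. Axl, a relative of Mertk, differed by -2.07. On the other side stood the TIM family relatives of Timd4. Havcr2 was 8.14-fold higher, at 74.9 on the tumor-draining array and 9.59 on the normal array. Havcr1 and Timd2 were detected in tumor-draining cells alone and were at least 7.42-fold and 6.97-fold higher. With normexp these 3 were under 2-fold, at 0.96 for Havcr2, 0.99 for Havcr1 and 0.96 for Timd2. Elmo1, an adaptor for engulfment, differed by 1.69. The TIM relatives are known from activated B and T cells as well, and 7 of 9 B cell and 9 of 10 T cell markers were called higher (9 and 10 with spike-in scaling). The B cell markers summed to 63196 on the tumor-draining array and 26852 on the normal array and the T cell markers to 60354 and 13850, with none at background on either, and their part in the TIM values was not tested. Fibroblastic reticular cell and blood endothelial markers had shifts of -2.04 and -3.07, and their part in the Gas6 and Axl values was not tested.

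Of 11 measured scavenger and lectin receptors of the sinuses, 7 were called lower and 1 higher (5 and 4 with spike-in scaling), and the shift was -1.72. With normexp 5 were lower and 1 higher and the shift was -0.86. Scarb1, a lipoprotein receptor, was 8.76-fold lower, with a signal of 332 on the tumor-draining array and 3033 on the normal array. Stab2, a hyaluronan receptor of sinus endothelium, was 7.08-fold lower, and its 5 probes ranged from -3.00 to -2.82. Clec10a, a galactose lectin of macrophages and dendritic cells, was 5.66-fold higher, and Cd5l, a secreted scavenger protein of macrophages, differed by 0.41. Siglec1, the marker of subcapsular sinus and medullary macrophages, was named after its value was seen and had a signal of 26.9 on the tumor-draining array and 22.7 on the normal array, a difference of 0.31. Mrc1, Msr1 and Cd209b of the same list were also named after their values were seen, and differed by -2.65, -1.62 and -1.20. With normexp or with spike-in scaling Msr1 and Cd209b were under 2-fold. Sinus endothelium is known to express Marco, Scarb1 and Stab2. Of 10 lymphatic endothelial markers, 9 were called lower and 1 higher (8 and 1 with spike-in scaling). Flt4 had the lowest difference at -2.87 (-0.998 with normexp). Nrp2 had the highest at 1.10, but another of its probes was at -2.81, and the mean over its probes detected on both arrays was -1.34. Their shift was -2.41 and their summed signal 16074 on the tumor-draining array and 49480 on the normal array, with none at background. Their part in the Marco value was not tested.

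Relatives of the members by protein family lay on both sides, between -3.25 and 3.03 among those above background on both arrays. Of 12 measured relatives, 4 were called lower and 4 higher (3 and 7 with spike-in scaling), with a shift of 0.21. Msr1, Colec12 and Cd5l were also counted with the scavenger receptors above, and Axl, Tyro3, Havcr1, Havcr2 and Timd2 with the genes for dying cells. The values of these genes are the same ones counted again. Havcr1 and Timd2 are again among the higher ones. Over the 10 relatives above background on both arrays, 4 were lower and 2 higher and the shift was -0.26, and with normexp 3 of 12 were lower and 1 higher. Scara3 and Scara5, class A scavenger receptors like Marco, differed by -3.25 and -2.17. Adgre5, which belongs with Adgre1, differed by 1.15, or 0.83 after loess, 0.95 with quantile normalization and 0.86 in the authors' deposited table, and the TIM gene Havcr2 was highest of those detected on both arrays.

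Of 11 measured pan-macrophage genes, which most macrophages and other myeloid cells express, 5 were called higher and 1 lower (7 and 1 with spike-in scaling), and the shift was 0.83. With normexp 2 were higher and 1 lower and the shift was 0.46, as Cx3cr1, Pld4 and Clec7a fell under 2-fold. Among the 7 brighter genes 2 were higher and 1 lower, with a median difference of 0.09. Mpeg1, a pore-forming protein of phagocytes, was 3.73-fold higher, with a signal of 2112 on the tumor-draining array and 590.4 on the normal array. Cx3cr1, a chemokine receptor, differed by 1.41, or 0.54 with normexp. Sirpa, which receives a signal that restrains engulfment, differed by -2.17 and Cd14, a coreceptor for bacterial lipopolysaccharide, by -0.68. Fcgr1, a high-affinity antibody receptor used to tell macrophages from dendritic cells, was named after its value was seen and was not well above background on either array, at 3.88 on the tumor-draining array and 1.83 on the normal array. Each of the 8 pan-leukocyte genes was called higher, between 1.51 for Vav1 and 2.30 for Ptprc, and they summed to 109036 on the tumor-draining array and 30247 on the normal array. Their part in the pan-macrophage values was not tested.

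**Figure D4:**
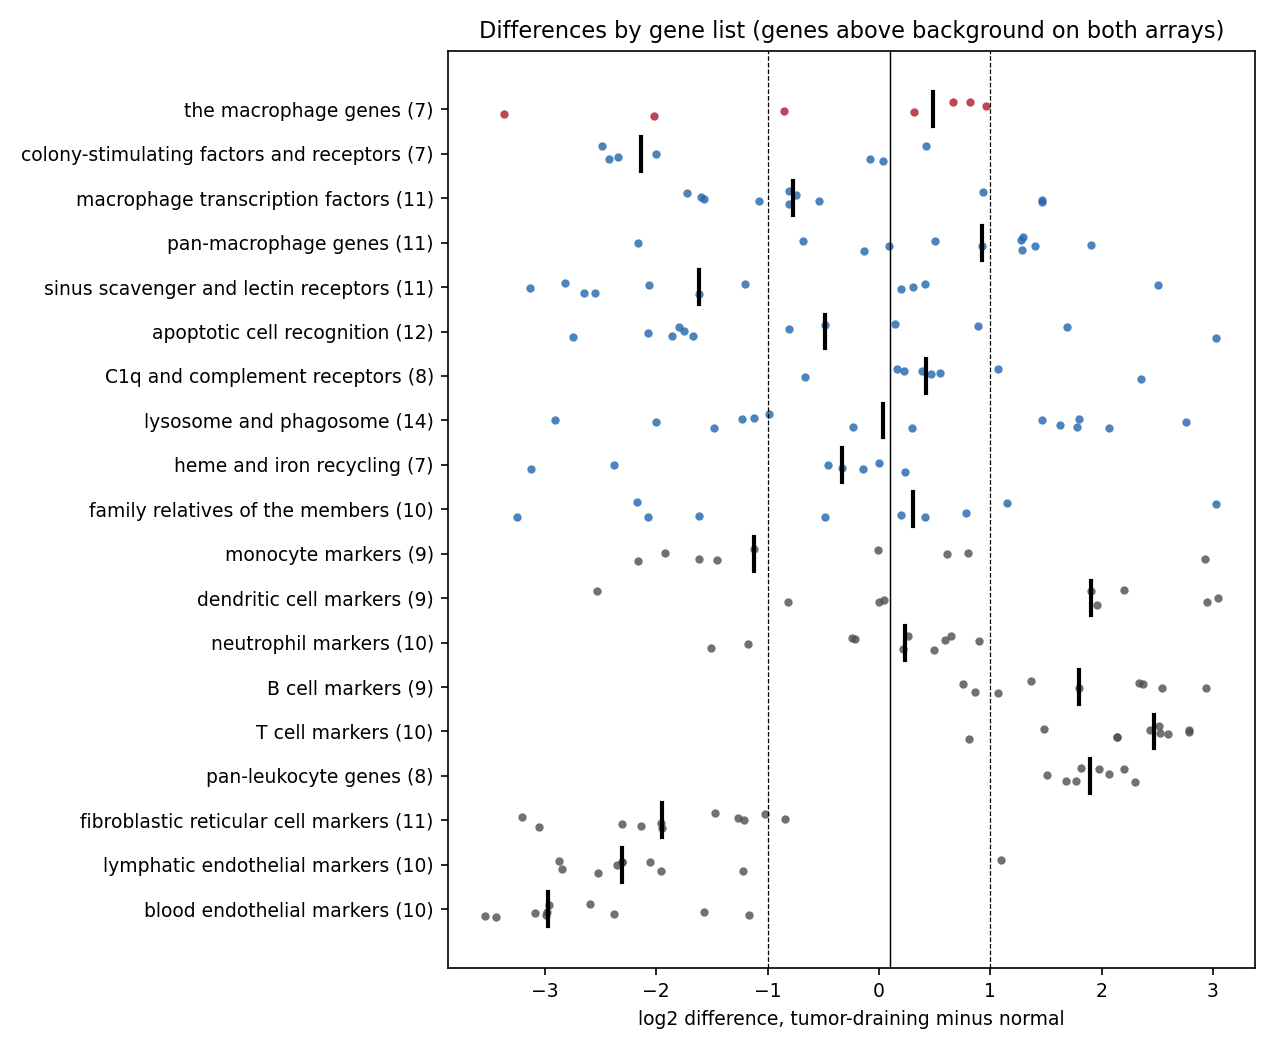
Log2 difference, tumor-draining minus normal, of each gene above background on both arrays (dots; their number in brackets) in the macrophage genes (red), the related gene lists (blue) and the marker lists of cell types (gray). Thick bars are medians over genes detected on 1 or both arrays, the thin solid line is the median of all genes and dashed lines mark 2-fold. The macrophage genes run from -3.36 to 0.96, across both the endothelial lists on the left and the neutrophil list near the middle.

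Macrophage transcription factors went both ways. Of 12, 4 were called lower and 3 higher (none and 4 with spike-in scaling, 4 and 1 with normexp), with a shift of -0.87. Cebpa, a myeloid and adipocyte factor, differed by -1.73 and Nr1h3, a receptor for oxidized cholesterol, by -1.60. Spi1, the myeloid and B cell factor on which Csf1r expression depends, differed by 1.47 with signals of 72.8 on the tumor-draining array and 27.5 on the normal array, or by 0.66 with normexp. Runx1 differed by 1.47, with probes from 0.05 to 1.87. Tfec was detected in tumor-draining cells alone and was at least 2.75-fold higher, and differed by 0.45 with normexp.

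C1q and complement receptor genes, which belong with the Vsig4 pathway, were mostly within 2-fold. Of all detected genes 27.9% were called in either direction, so this is not far from the share of all genes. Of 8 measured, 2 were called higher and none lower (6 and none with spike-in scaling, 1 and none with normexp or loess), with a shift of 0.33. Itgb2, the beta chain shared by leukocyte integrins, was 5.11-fold higher and C5ar1 differed by 1.07, or 0.27 with normexp. Itgam, the alpha chain of a complement receptor, differed by -0.66 and C1qa by 0.16, with signals of 44.0 on the tumor-draining array and 41.2 on the normal array for C1qa.

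Lysosome and phagosome genes, the compartment of Cd68, split into groups. Of 14, 6 were called higher and 5 lower (7 and 2 with spike-in scaling), with a shift of -0.07. Cybb and Ncf1, subunits of the phagocyte oxidase that B cells also express, differed by 2.76 and 2.06, with Cybb at 622 on the tumor-draining array and 95.9 on the normal array. Gpnmb, a lysosomal glycoprotein, was 7.53-fold lower and Ctsl, a cathepsin of many cell types, 4.02-fold lower. Genes for recycling heme and iron, which follow uptake through Cd163, had 2 of 7 called lower and none higher (2 and 1 with spike-in scaling), with a shift of -0.43. Over all detected genes 27.9% were called in either direction, so this count is not far from that share. Slc11a1, a metal transporter of the phagosome, was 8.73-fold lower, with a signal of 59.3 on the tumor-draining array and 541 on the normal array. Hmox1, which breaks down heme, was 5.20-fold lower. Ftl1, the ferritin light chain, differed by 0.23 and Blvra, a biliverdin reductase, by -0.00024, and the sign of both turned with the processing.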

How the data were processed

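Per the labels' protocols, amplified Cy3-labeled RNA of the sorted cells was read on single-color arrays, 1 per group. Spot intensities in the deposited scanner output are linear and were background-subtracted by Agilent Feature Extraction 12.0.3.1 (protocol GE1_1200_Jun14, build mm9) per the file headers, while the submitters' processing notes name version 10.7 and limma. A value table deposited by the authors is on a log2 scale, with its steps not stated; its columns had medians of 4.86 (tumor-draining) and 4.85 (normal), followed the log2 signals of the same arrays (r = 0.9999 for both) without centering by gene, and served as an alternative.

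Each log2 signal was reduced by the 75th percentile over 59305 non-control spots of its array (signal 358 tumor-draining, 374 normal). Outlier spots (176) were left out, spots of a probe averaged, and the brightest probe above background stood for a gene. A probe was taken as detected when 50% or more of its spots bore the mark for well above background, as 35570 (tumor-draining) and 36783 (normal) did. No non-control spot was saturated. Names came from RefSeq accessions of GRCm38.p6 for 32992 probes, current symbols for 10224 and synonyms for 520, and 12867 kept the file's name. The calling step was tested on simulated data with planted differences well past 2-fold and every probe above background. Calls near 2-fold and calls that rest on a bound were not tested in this way. Members and lists were chosen with earlier results of these data known. The genes named are all members, the 2 highest and 2 lowest of each related list among genes above background on both arrays, genes with a bound of at least 2-fold, and the highest and lowest of each marker list; exceptions are stated. Alternatives were normexp (offset 50), quantile and loess (span 0.3) normalization, scaling to the median of detected probes or of 6 spike-in probes under 60000, the authors' table, the mean over probes, and other background filters. Python 3.11.15, numpy 2.4.6, pandas 2.3.3, R 4.3.3 and limma 3.58.1 were used.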

Additional observations from a re-analysis of the deposited data

How the results depend on the processing

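The 7 members above background on both arrays kept the sign of their difference under all 8 alternatives run for them, and 12 of 56 values moved by more than the between-probe SD of 0.27. Some of the 56 could not move. Marco, Timd4 and Mertk have 1 probe each, so a mean over probes returned their main value. For Adgre1 the mean over detected probes did the same. The count of members at least 2-fold higher, 0 in the main setting, was 1 with quantile normalization, 1 in the authors' table (both Adgre1), 1 without the background filter (Cd163) and 5 when scaled to the spike-ins. The count at least 2-fold lower, 2 in the main setting, was 1 among the brighter genes (mean signal not under the median) and 3, with Mertk, after loess and after scaling to the median of detected probes. Over all genes, 2824 were higher and 4073 lower in the main setting, against 1390 and 2444 with normexp, 11346 and 1974 when scaled to the spike-ins, and 1098 and 1598 among the brighter genes, where fewer genes were counted. The cause of the other changes was not tested. Scaling to the spike-ins or to the median of detected probes changes every gene by the same amount, so it could not change a shift. Of 162 shifts of other lists under alternatives, these fixed ones included, 151 stayed within the between-probe SD, and 11 moved further. Besides those given with their lists, these were lymphatic (-2.03) and blood endothelial markers (-2.49) with normexp. Relative to the main setting, the median of all genes moved by 0.82 with spike-in scaling, -0.17 with loess and -0.16 with scaling to the median of detected probes. No paired analysis was possible because each group has 1 array and the labels give no replicate numbers. Dim members limit precision: Vsig4, Cd163 and 1 Adgre1 probe lay at or near background.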

Other observations

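Markers of other myeloid cells did not move as 1 group. Of 9 monocyte markers, 5 were called lower and 1 higher on the tumor-draining array (2 and 3 with spike-in scaling), with a shift of -1.22 relative to all genes. Ccr2, the receptor that brings monocytes out of the marrow and that T cells also carry, was 7.61-fold higher, with a signal of 215 on the tumor-draining array and 29.5 on the normal array. Vcan, a matrix proteoglycan that monocytes and fibroblasts make, differed by -2.16. Ly6c2 differed by -1.46 and Ly6c1, a blood endothelial marker, by -1.57, both named after their values were seen. Most fibroblastic reticular cell and endothelial markers were also lower, and their part in the monocyte marker values was not tested. Of 9 measured dendritic cell markers, 5 were called higher and 1 lower (the same counts with spike-in scaling), with a shift of 1.81. That shift was 0.64 with normexp, 1.05 with the mean over all probes of each gene and 0.88 without the background filter. Itgae, an integrin of some dendritic cells and of T cells, was 8.26-fold higher, and Zbtb46, a factor of classical dendritic cells and endothelium, was 5.80-fold lower. Of 10 neutrophil markers, 2 were called lower and none higher (none and 6 with spike-in scaling, 1 and none with normexp), with a shift of 0.14. Over all detected genes 27.9% were called in either direction, so this count is not far from that share. With spike-in scaling 11346 of the 24677 detected genes were called higher. Cxcr2, a chemokine receptor, differed by 0.90 and Ly6g, the surface marker of mouse neutrophils, by -1.51, or -0.40 with normexp.

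Among blood endothelial markers all 10 were called lower (8 with spike-in scaling), from Emcn (-3.54) to Pecam1 (-1.17), and among fibroblastic reticular cell markers Ccl19 (-3.20) was lowest and Col3a1 (-0.85, with probes down to -2.42) highest. B cell markers ran from Cd79b (0.76) to Bank1 (2.94) and T cell markers from Cd247 (0.81) to Cd28 (2.79).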
